A study of Mus with 6 samples.

Results

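The DEAD and DEAH box RNA helicases were taken as every probe of the deposited value table whose annotated symbol begins with Ddx or Dhx and a digit, leaving out Ddx58 and Dhx58. The rule rests on gene names and uses no measured value, but it was set with earlier results of these data known. It gave 88 probes for 44 genes, 29 with a Ddx and 15 with a Dhx symbol, of 45281 probes and 19057 named genes in all. 17 of the 44 genes had 1 probe and 27 had several, at most 5.

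These helicases couple ATP to the remodelling of RNA and of RNA-protein complexes, and they are named after the aspartate-glutamate-alanine-aspartate or aspartate-glutamate-alanine-histidine stretch of their ATPase core. DEAD box members mostly open short duplexes locally or clamp RNA, whereas DEAH box members move along a strand and pull it out of larger assemblies. Together they serve ribosome assembly in the nucleolus, each step of splicing, mRNA export, translation, decay and microRNA processing, and blood-forming cells depend on several of them for protein output and growth. Several are activated by partner proteins that carry a G-patch or a MIF4G domain.

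The RNA came from the bone marrow of C57BL/6 mice with chronic myeloid leukaemia (CML), a stem cell leukaemia started here by transplanted cells that carry BCR-ABL p210. GFP+ cells without lineage markers but with Sca-1 and c-Kit, the LSK surface pattern of stem and early progenitor cells, were sorted 14 days after transplantation from WT mice and from Klf4-deficient mice. There were 3 Illumina bead arrays per group, numbered by their titles, and both groups carry BCR-ABL p210. The age and sex of the mice, and how and in which cells Klf4 was deleted, are not stated in the sources used. Nothing in the labels says whether a group's samples are separate mice, so p-values reflect sample-to-sample spread that may be technical.

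On each array 7082 to 7214 probes, 15.6% to 15.9%, lay above an intensity of 32, the floor used throughout. WT replicate 3 stood apart from the other 5 arrays. Its log2 values correlated with theirs at 0.29 to 0.30 over the 18270 probes that were above 32 somewhere, against 0.66 to 0.72 among those 5. Differences are therefore given with and without it for many of the probes below. Klf4 itself, read by 3 probes, was above 32 only once, at 51.9 in WT replicate 2, so the arrays do not check the knockout. Of the 10 stem and progenitor genes with a named probe, 2 to 6 were above 32 per array, fewest in WT replicate 3. Slamf1 was above 32 on none, Cd34 only in Klf4-deficient replicate 3, and Gata2 on every array but WT replicate 3. Kit was above 32 on every array but WT replicate 1 and Klf4-deficient replicate 2, and Hlf only in WT replicate 3. Ly6a, the gene of Sca-1, had no named probe, so that part of the sort could not be checked. The summed neutrophil marker signal was 2110.9 to 7574.2 in WT, highest in replicate 3, and 2022.8 to 2985.7 in Klf4-deficient cells. By gene, 4 of 9 neutrophil markers were above 32 in each WT array, and 6, 3 and 3 in Klf4-deficient replicates 1, 2 and 3. Camp, Ngp, Prtn3, S100a8 and S100a9 were not above 32 in WT replicate 3. The summed T and NK cell signal was 113.9 to 129.1 in WT and 302.6 to 423.3 in Klf4-deficient cells, where 2 or 3 of 8 genes were above 32 per array and Cd3e, Cd4, Cd5 and Klrb1c were not. The sums include Thy1, with 1 probe at 24.4, 26.0 and -7.0 in WT replicates 1, 2 and 3. It read 113.0, 187.2 and 146.0 in the Klf4-deficient ones, at least 4.55-fold higher, with an unadjusted p of 0.000195 and an adjusted p of 0.595 (limma). The summed monocyte and macrophage signal was highest in WT replicate 3, at 545.4, against 82.6 to 190.4 on the other arrays. In that array 2 of 5 genes were above 32, and Adgre1, Ccr2 and Ctss were not. The summed erythroid signal was 1966.8 to 3516.4 in WT and 2663.5 to 4055.9 in Klf4-deficient cells. Its gene Alas2, of heme synthesis, was above 32 on every Klf4-deficient array and no WT array, at least 4.58-fold higher, with an unadjusted p of 0.000129 and an adjusted p of 0.595 (limma). The groups overlapped on every tested probe of Car2, Hba-a1, Klf1 and Slc4a1, and Epor was above 32 on no array. By gene, 4, 4 and 3 of 6 erythroid markers were above 32 in WT replicates 1, 2 and 3, and 4, 5 and 5 in the Klf4-deficient ones. The 2 Car2 probes differed by -0.42 and 0.40 in log2, and by -0.03 and -0.81 without WT replicate 3. B cell genes were not above 32 except 1 of 4, Vpreb1, in Klf4-deficient replicate 3. The part of these other cells in the helicase values was not tested. In sorted bulk RNA, fewer cells of a type and less RNA per cell cannot be told apart.

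Helicase probes were above 32 more often than the array as a whole on every array, and least often in WT replicate 3. Of the 88 probes, 45, 35 and 16 were above 32 in WT replicates 1, 2 and 3, which is 51.1%, 39.8% and 18.2%. In Klf4-deficient replicates 1, 2 and 3 the counts were 37, 37 and 39, or 42.0%, 42.0% and 44.3%. By gene, 25, 21 and 12 of 44 helicases had a probe above 32 in the WT arrays and 21, 22 and 24 in the Klf4-deficient arrays. WT replicates 1 and 2 thus enclose the 3 Klf4-deficient arrays, and replicate 3 lies below all others. At limits of 16 and 64 it was again the lowest, with 21 and 13 probes against 39 to 51 and 24 to 32 on the others.

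**Figure D1:**
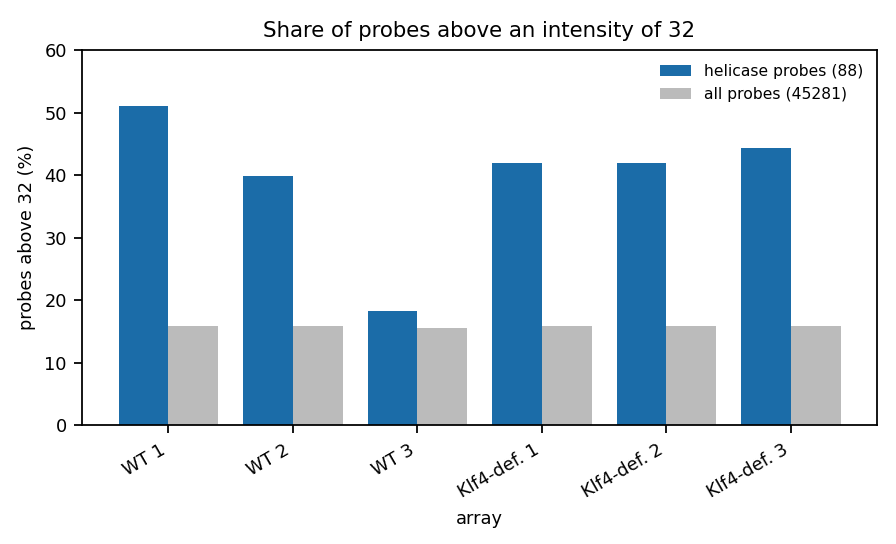
Bars give the percentage of helicase probes (blue, 88 probes) and of all probes (grey, 45281 probes) with an intensity above 32 on each of the 6 arrays. The helicase share is 39.8% to 51.1% on 5 arrays and 18.2% in WT replicate 3, while the share of all probes is 15.6% to 15.9% throughout.

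The low count in WT replicate 3 went along with a change in which probes were bright. The share of helicase probes above 32 was 18.2% there, against 39.8% to 51.1% on the other arrays. For all probes it was 15.6%, against 15.9%, so the net fall was not shared by the whole table. Only among probes above 32 on all of the other 5 arrays were helicases lost about as often as other probes. 23 helicase probes were above 32 on all of the other 5 arrays, and 13 of these, 56.5%, were not above 32 in WT replicate 3. Over the whole table this was so of 1460 of 2657 probes, 54.9%. Among the 31 helicase probes above 32 on at least 4 arrays, WT replicate 3 held the lowest value for 18. In the same array the second Dhx15 probe and the fifth Ddx6 probe reached 3083.8 and 2294.3, the brightest values that either had anywhere.

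59 helicase probes of 34 genes were above 32 on at least 1 array and could be tested. The other 29 probes never were, and for 10 genes this held for all probes: Ddx11, Ddx25, Ddx28, Ddx31, Ddx52, Ddx56, Dhx8, Dhx34, Dhx35 and Dhx37. 10 probes were above 32 on all 6 arrays, 14 on 1 array, 10 on WT arrays alone and 7 on Klf4-deficient arrays alone. A probe that passed through 1 group alone could differ in 1 direction only. These levels are bounds: a probe not above 32 may still have a transcript.

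**Figure D2:**
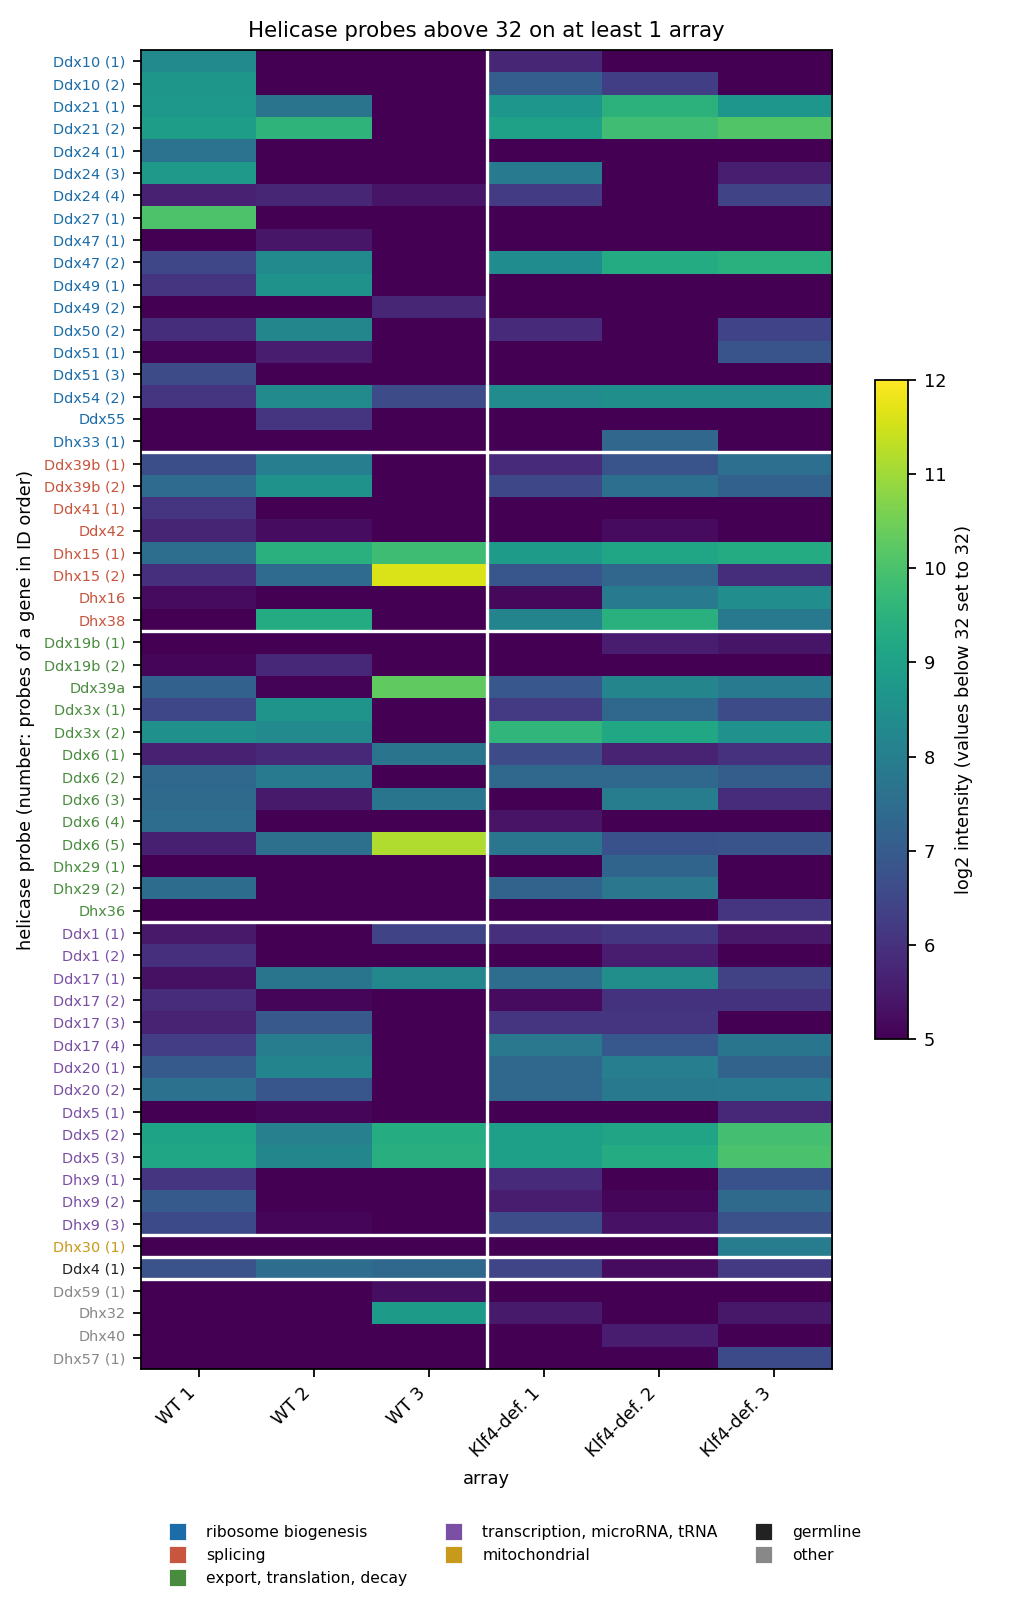
Each line is 1 of the 59 helicase probes above 32 on at least 1 array, each column 1 array, and the colour is the log2 intensity with values below 32 set to 32; label colours mark the role of the gene. WT replicate 3 shows dark cells for most probes, with bright ones for some probes of Ddx5, Ddx6, Ddx17, Ddx39a, Dhx15 and Dhx32.

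No helicase probe differed between Klf4-deficient and WT cells after correction. With limma and Benjamini-Hochberg adjustment over all 18270 probes tested, 0 of 59 helicase probes passed 0.05, as did 0% of the table. Adjusted p-values of the helicases ran from 0.715 to 0.998. At an unadjusted p under 0.05, limma gave 371 probes over the table, and an ordinary t statistic without moderation gave 239, with 1 after adjustment that was no helicase. Among the 371, 266 were higher in Klf4-deficient cells, 1.46% of those tested, and 105 were lower, 0.575%. The helicases held 1 of each, Ddx47 higher and Ddx4 lower, where the table's shares give 0.859 and 0.339 of 59.

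For 3 helicase probes, those of Ddx47, Ddx54 and Ddx3x, all Klf4-deficient values were above all WT values, against 2.13% of the table, or 1.26 of 59. For 1, that of Ddx4, all were below, against 0.958%, or 0.565 of 59. Each count is thus within 2 probes of the table's share. The differences of the tested helicases, as log2 of Klf4-deficient over WT on values floored at 32, were positive for 35 and negative for 24. Their median was 0.18, beside -0.05 over all tested probes, and it was 0.27 beside 0.06 without WT replicate 3. With all 88 probes counted, those never above 32 at no difference, the median was 0.

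The precision differed between the groups. The median SD of a tested helicase probe was 1.14 log2 units over the WT arrays and 0.52 over the Klf4-deficient arrays, and 43 of 59 probes had the larger SD in WT. Over all tested probes the medians were 0.64 and 0.31. The median standard error of a helicase difference was 0.72, with a range of 0.17 (Ddx59) to 1.53 (Dhx15), so each difference has to be read beside its own error. The WT values include replicate 3, whose part in the WT spread was not tested.

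**Figure D3:**
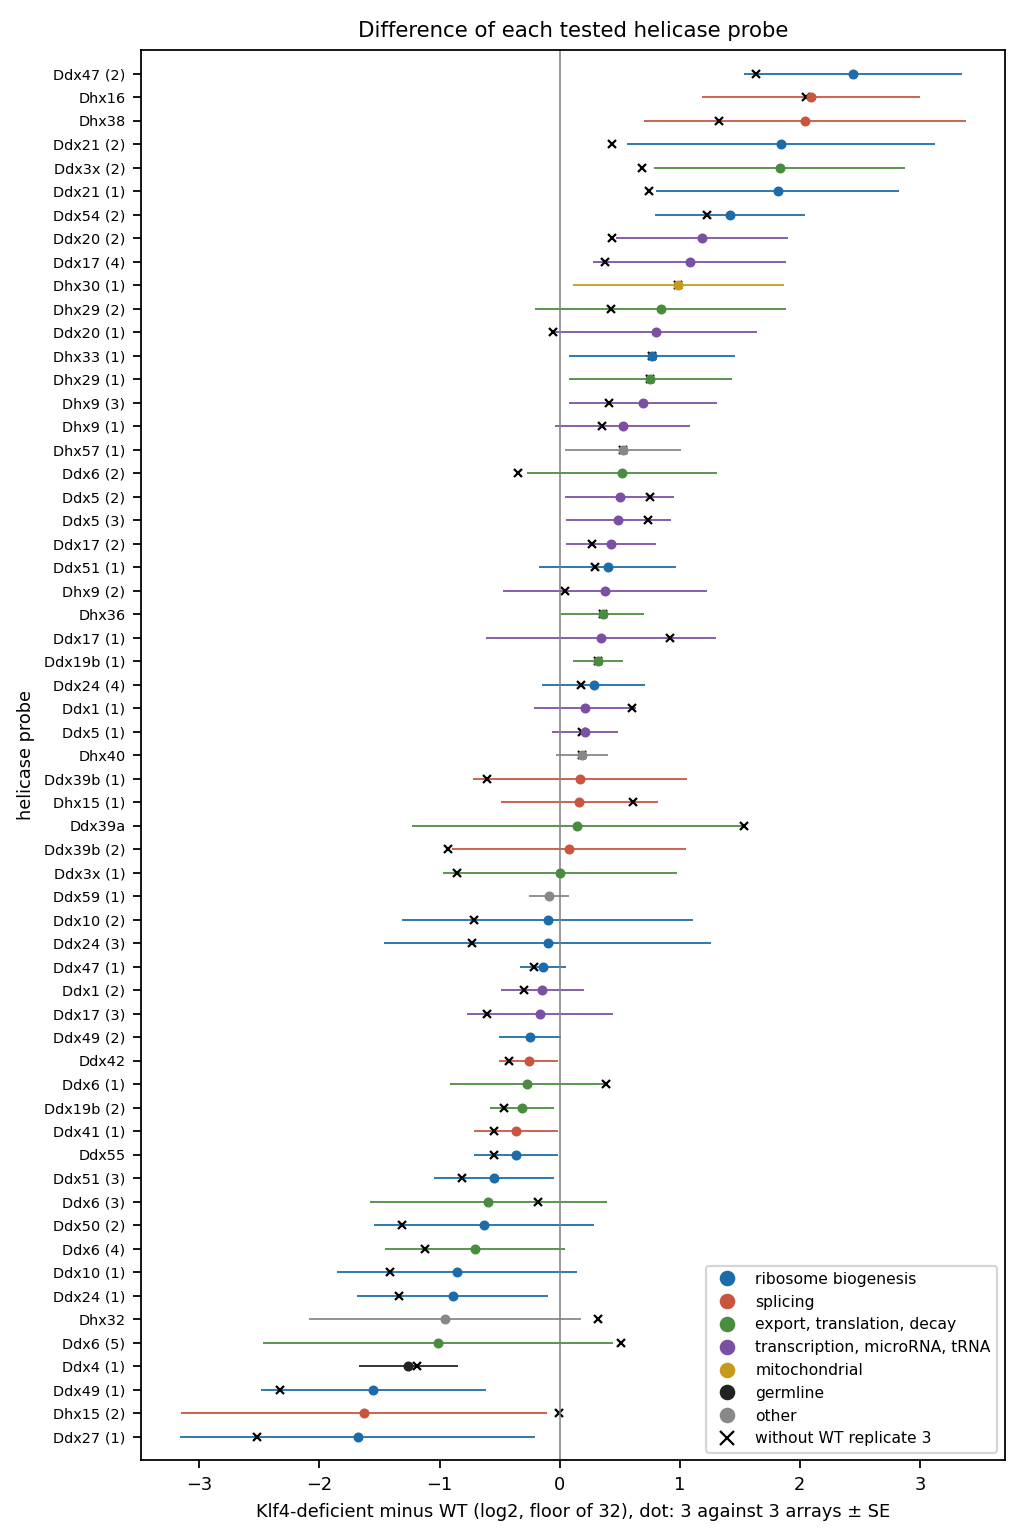
Dots show the difference of each of the 59 tested helicase probes, Klf4-deficient minus WT in log2 units on values floored at 32, with bars of 1 standard error, coloured by role; crosses show the same without WT replicate 3. The values run from -1.68 (Ddx27) to 2.44 (Ddx47). Crosses lie far from dots for probes of Dhx15, Ddx6, Ddx21, Ddx39a, Dhx32 and Ddx3x, among others.

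Helicases of ribosome assembly held both the highest and the lowest differences of the family. Of 32 probes for 15 genes, 18 probes of 11 genes were tested, and 7 were higher and 11 lower in Klf4-deficient cells, none past the adjusted threshold. Their median was -0.12, and -0.55 without WT replicate 3. 7 of these probes were above 32 on WT arrays alone and 1 on Klf4-deficient arrays alone.

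Ddx47 acts in the processing of the small subunit rRNA precursor. From here on values are intensities in the order of replicates 1, 2 and 3. Its second probe (ILMN_2674595) read 89.5, 327.5 and 10.9 in the WT arrays and 339.9, 633.9 and 699.6 in the Klf4-deficient arrays. All Klf4-deficient arrays were brighter than all WT arrays, though Klf4-deficient replicate 1 and WT replicate 2 were close. The difference was 2.44 ± 0.91 (SE), 5.44-fold, with an unadjusted p of 0.0414 and an adjusted p of 0.715 (limma). Without WT replicate 3 it was 1.64, with an unadjusted p of 0.0774 (limma). The gene's other 2 probes, assigned to the same RefSeq transcript, do not show it: one was above 32 only in WT replicate 2, at 42.9, and the other nowhere.

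Ddx54 is a nucleolar helicase of large subunit assembly that also binds nuclear receptors. Its second probe (ILMN_2689678) read 66.3, 325.2 and 98.1 in the WT arrays and 331.0, 357.6 and 342.1 in the Klf4-deficient arrays. The Klf4-deficient values were nearly equal, and WT replicate 2 lay just below them. The difference was 1.42 ± 0.62 (SE), 2.68-fold, unadjusted p 0.0692 and adjusted p 0.715 (limma), and 1.23 without WT replicate 3. The first Ddx54 probe was not above 32 on any array.

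Ddx21 couples RNA polymerase I transcription and rRNA processing to the transcription of ribosomal protein genes. Its first probe (ILMN_2546724) read 422.3, 207.1 and -3.0 in the WT arrays and 412.9, 725.1 and 407.1 in the Klf4-deficient arrays. Its second (ILMN_2639272) read 472.4, 749.6 and -5.9 in the WT arrays and 512.3, 926.6 and 1099.5 in the Klf4-deficient arrays. Both probes were bright on 5 arrays and at background in WT replicate 3, and the groups overlapped on both. The differences were 1.82 ± 1.01 and 1.84 ± 1.28 (SE), with an adjusted p of 0.715 for each (limma). Without WT replicate 3 they were 0.75 and 0.44, so most of either difference rested on that array.

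Some probes of Ddx27, Ddx10 and Ddx24, set together here after their values were seen, were brightest in WT replicate 1. This was not general: of the 59 tested helicase probes, 10 had their highest value in WT replicate 1, 13 in WT replicate 2 and 16 in Klf4-deficient replicate 3. Ddx27, a partner of the complex that shapes the large subunit rRNA ends, read 1055.2 there on 1 probe and at most 22.0 on every other array. Its other 2 probes were above 32 nowhere. Ddx10, which acts on the small subunit precursor, read 318.6, -12.6 and 11.9 in the WT arrays and 53.7, 14.1 and 9.2 in the Klf4-deficient arrays on its first probe. The second Ddx10 probe read 415.3, -9.2 and -10.8 against 136.8, 79.1 and 16.8. These 2 of the 3 Ddx10 probes were thus highest in WT replicate 1 and next highest in Klf4-deficient replicate 1, and the remaining one was above 32 nowhere.

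Ddx24, a nucleolar helicase that also acts on the p53 pathway, had the same array on top for 2 of 4 probes. These read 204.1 and 443.1 in WT replicate 1 and at most 18.2 in the other WT arrays. In Klf4-deficient replicate 1 they read -10.7 and 238.7, and at most 48.1 in the others. The fourth Ddx24 probe was 50.3, 54.2 and 41.9 in the WT arrays and 74.3, 15.3 and 86.3 in the Klf4-deficient arrays, with overlapping groups. The remaining probe was not above 32.

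Ddx49 regulates pre-rRNA and mRNA export. Its first probe (ILMN_1245733) read 67.9, 381.2 and 8.6 in the WT arrays and 22.2, 12 and -11.9 in the Klf4-deficient arrays. It was thus above 32 on 2 WT arrays and on no Klf4-deficient array. On floored values it was 2.93-fold lower in the latter, with a difference of -1.55 ± 0.94 (SE), an unadjusted p of 0.156 and an adjusted p of 0.715 (limma). Without WT replicate 3 the difference was -2.33, with an unadjusted p of 0.04 (limma), the only helicase difference under 0.05 in that fit. Without WT replicate 2, the brightest array, it was -0.54. The second Ddx49 probe was above 32 only in WT replicate 3, at 53.5.

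Ddx50, a paralogue of Ddx21, read 60.3, 294.5 and -14.7 in the WT arrays and 56.8, 31.3 and 84.3 in the Klf4-deficient arrays, a difference of -0.63 ± 0.92 that was -1.32 without WT replicate 3. Ddx51, of large subunit rRNA maturation, had 1 probe at 33.4, 46.9 and 4.5 against -4.7, 24.1 and 112.2 and another above 32 only in WT replicate 1, at 99.3. Groups overlapped on both. Ddx55 was above 32 only in WT replicate 2, at 68.2, and Dhx33, a DEAH helicase of rRNA transcription and translation initiation, only in Klf4-deficient replicate 2, at 158.9. Ddx31, Ddx52, Ddx56 and Dhx37 were not above 32.

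Among splicing helicases, Dhx16 and Dhx38 had the highest differences and a Dhx15 probe the lowest. 11 probes for 8 genes were measured and 8 probes of 6 genes tested, 5 higher and 3 lower, with a median of 0.12 that became -0.21 without WT replicate 3. Dhx16 drives the step that activates the spliceosome. It read 37.0, 13.5 and -2.4 in the WT arrays and 35.2, 242.0 and 343.0 in the Klf4-deficient arrays. The values of Klf4-deficient replicates 2 and 3 were above every WT value, and that of replicate 1 was below WT replicate 1. The difference was 2.09 ± 0.91 (SE), 4.26-fold, unadjusted p 0.0674 and adjusted p 0.715 (limma). Leaving out WT replicate 3 gave 2.06. Leaving out Klf4-deficient array 3 gave 1.46, and array 1 gave 3.10.

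Dhx38 remodels the spliceosome between the catalytic steps. It read 24.3, 631.6 and 5.7 in the WT arrays and 283.6, 702.7 and 227.1 in the Klf4-deficient arrays, so WT replicate 2 fell inside the Klf4-deficient range and the other WT arrays were at background. The difference was 2.04 ± 1.34 (SE). It was 1.33 without WT replicate 3 and 3.48 without WT replicate 2.

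Dhx15 takes spent spliceosomes apart and is driven by G-patch partners. Its first probe (ILMN_1218571) read 183.7, 698.9 and 910.4 in the WT arrays and 463.2, 563.6 and 629.9 in the Klf4-deficient arrays, a difference of 0.16 ± 0.65. Its second (ILMN_3145527), assigned to another RefSeq transcript, read 62.2, 176.1 and 3083.8 against 118.3, 159.6 and 60.3, a difference of -1.63 ± 1.53. Groups overlapped on both probes. The second difference rested on WT replicate 3, without which it was -0.003, while the first became 0.61.

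Ddx39b, the helicase that recruits the branch site complex and then hands mRNA to the exporter, had both probes bright on 5 arrays and below 32 in WT replicate 3. The first read 102.2, 256.5 and -10.9 in the WT arrays and 56.6, 113.0 and 187.6 in the Klf4-deficient arrays, and the second 172.9, 384.0 and 21.8 against 91.3, 188.2 and 145.2. The differences were 0.17 ± 0.89 and 0.08 ± 0.97, and -0.61 and -0.93 without WT replicate 3. Their direction was therefore set by 1 array. Ddx42, of the early spliceosome, read 53.2, 37.9 and -2.9 against 20.0, 36.8 and 20.2. Ddx41, a splicing helicase mutated in some myeloid leukaemias, was above 32 only in WT replicate 1, at 68.1, and its other probe nowhere. Dhx8 and Dhx35 were not above 32.

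In the group of export, translation and decay, 13 of 15 probes for 6 of 7 genes were tested, 8 higher and 5 lower. The median was 0.15, and 0.36 without WT replicate 3. Ddx3x, an X-linked helicase that helps ribosomes scan structured leaders, had 2 probes that did not match. The second (ILMN_2710166) read 367.4, 323.9 and -2.0 in the WT arrays and 781.0, 587.6 and 373.9 in the Klf4-deficient arrays. All Klf4-deficient arrays were brighter than all WT arrays, by a narrow gap between 367.4 and 373.9. The difference was 1.83 ± 1.05 (SE), 3.56-fold, unadjusted p 0.138 and adjusted p 0.715 (limma), and 0.69 without WT replicate 3. The first probe (ILMN_2519780) read 91.9, 392.3 and -3.0 against 73.4, 163.3 and 97.1, with overlapping groups and a difference of 0.004 ± 0.98, or -0.85 without WT replicate 3.

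Ddx6 represses translation, activates decapping and builds P-bodies. Its 5 probes gave 1 positive and 4 negative differences, from -1.01 to 0.52, and the groups overlapped on every probe. The fifth (ILMN_3114632) read 49.1, 191.0 and 2294.3 in the WT arrays and 214.0, 109.1 and 112.1 in the Klf4-deficient arrays, a difference of -1.01 ± 1.46 that was 0.51 without WT replicate 3. The fourth, assigned to the same RefSeq transcript, read 179.6, 27.1 and 6.7 against 41.6, 3.1 and -8.4, highest in WT replicate 1. The second read 160.6, 236.0 and -4.8 against 164.8, 161.4 and 134.8, at background in the array where the fifth was brightest.

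Ddx6 probes 1 and 3 read 50.2, 54.6 and 206.1 against 97.6, 51.3 and 64.1, and 171.7, 45.7 and 209.4 against 30.8, 251.2 and 59.6. Their differences were -0.27 ± 0.64 and -0.59 ± 0.99, and 0.39 and -0.18 without WT replicate 3. All 5 tested probes were on the same side of 32 on 1 of 6 arrays.

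Ddx39a, the close paralogue of Ddx39b, read 144.1, 33.5 and 1249.8 in the WT arrays and 118.9, 289.0 and 238.9 in the Klf4-deficient arrays. The difference was 0.15 ± 1.38, and 1.54 without WT replicate 3, the bright array. Dhx29, which lets the small ribosomal subunit pass structured leaders, read 178.4, -6.0 and 3.4 in the WT arrays and 150.0, 219.1 and 5.1 in the Klf4-deficient arrays on 1 probe. A second Dhx29 probe was above 32 only in Klf4-deficient replicate 2, at 154.1. Groups overlapped on the first.

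Dhx36, which resolves G-quadruplexes and is needed in blood-forming cells, was above 32 only in Klf4-deficient replicate 3, at 67.3. On floored values it was 1.28-fold higher in Klf4-deficient cells, which rests on that array. Ddx19b, which strips proteins from mRNA leaving the nuclear pore, had 1 probe above 32 only in Klf4-deficient replicates 2 and 3, at 46.9 and 42.4, and 1 only in WT replicates 1 and 2, at 34.7 and 56.3. The 2 probes thus pointed opposite ways, on floored values 1.25-fold higher and 1.24-fold lower in Klf4-deficient cells. Dhx34, of nonsense-mediated decay, was not above 32.

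All 14 probes of the 5 helicases of transcription, microRNA processing and tRNA ligation were tested, 12 higher and 2 lower in Klf4-deficient cells, with a median of 0.46 and of 0.37 without WT replicate 3. None passed the adjusted threshold, and the groups overlapped on each. Ddx5 and Ddx17 are paralogues that serve the Drosha complex, transcription and splicing. The second Ddx5 probe (ILMN_2666830) read 534.7, 265.5 and 643.3 in the WT arrays and 495.4, 545.9 and 952.6 in the Klf4-deficient arrays. The third (ILMN_2747168) read 558.7, 299.1 and 678.1 against 494.5, 627.5 and 1010.1. Both probes gave the same order of WT arrays and both put Klf4-deficient replicate 3 on top. The differences were 0.50 ± 0.45 and 0.49 ± 0.44, with an adjusted p of 0.715 (limma). They became 0.76 and 0.73 when WT replicate 3 was left out, 0.12 and 0.14 for WT replicate 2, and 0.21 and 0.20 for Klf4-deficient replicate 3.

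Among the WT arrays, both of these Ddx5 probes were brightest in replicate 3. The first Ddx5 probe was above 32 only in WT replicate 2 and Klf4-deficient replicate 3, at 35.1 and 54.6. The 4 Ddx17 probes gave differences of 0.34 ± 0.96, 0.43 ± 0.37, -0.17 ± 0.61 and 1.08 ± 0.80. These were 0.92, 0.27, -0.60 and 0.38 without WT replicate 3, and the fourth was 1.86 without WT replicate 2. The first read 40.1, 212.0 and 304.0 in the WT arrays and 182.0, 351.7 and 82.4 in the Klf4-deficient arrays, and was brightest of the WT arrays in replicate 3. The fourth read 76.7, 247.3 and 26.0 against 224.1, 121.3 and 211.9, and was below 32 in that replicate. The other 2 stayed between 9.7 and 123.8 on all arrays.

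Dhx9 unwinds RNA and DNA structures and links transcription factors to RNA polymerase II. Its 3 probes read 65.9, 125.8 and 95.3 in WT replicate 1, 15.7, 26.1 and 34.1 in replicate 2 and -4.7, -3.7 and 10.4 in replicate 3. In Klf4-deficient replicates they read 57.6, 47.5 and 101.1, then 20.6, 35.0 and 40.5, then 109.3, 169.9 and 107.0. The 3 probes agreed on bright and dim arrays, and replicates within either group differed more than the groups did. The differences were 0.53 ± 0.56, 0.38 ± 0.85 and 0.69 ± 0.62. They were 0.35, 0.05 and 0.41 without WT replicate 3.

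Ddx20, the Gemin3 subunit of the SMN complex that loads spliceosomal snRNPs, read 127.6, 283.6 and 20.4 in the WT arrays and 162.9, 254.0 and 148.6 in the Klf4-deficient arrays on its first probe. The second (ILMN_2749303) read 199.1, 116.9 and -3.9 against 163.7, 228.7 and 233.2. Both were below 32 in WT replicate 3 alone. The differences were 0.80 ± 0.84 and 1.18 ± 0.72, and -0.05 and 0.43 without that array. Ddx1, of the tRNA ligase complex, read 44.7, 14.4 and 85.8 against 61.0, 69.5 and 45 on its first probe, and its second was above 32 only in WT replicate 1 and Klf4-deficient replicate 2, at 61.8 and 45.9.

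Ddx4, the Vasa helicase that marks germ cells, gave the lowest p-value of the family, on 1 of its 3 probes. That probe (ILMN_1250802) read 111.5, 180.5 and 163.9 in the WT arrays and 88.9, 37.2 and 72.7 in the Klf4-deficient arrays. Every WT array was brighter than every Klf4-deficient array, WT replicate 3 included. The difference was -1.26 ± 0.41 (SE), 2.39-fold, with an unadjusted p of 0.0259 and an adjusted p of 0.715 (limma). Without WT replicate 3 it was -1.19, with an unadjusted p of 0.0716 (limma). The other 2 Ddx4 probes, assigned to the same RefSeq transcript, were not above 32 on any array. Ddx25, the other germ cell helicase here, was also not above 32.

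**Figure D4:**
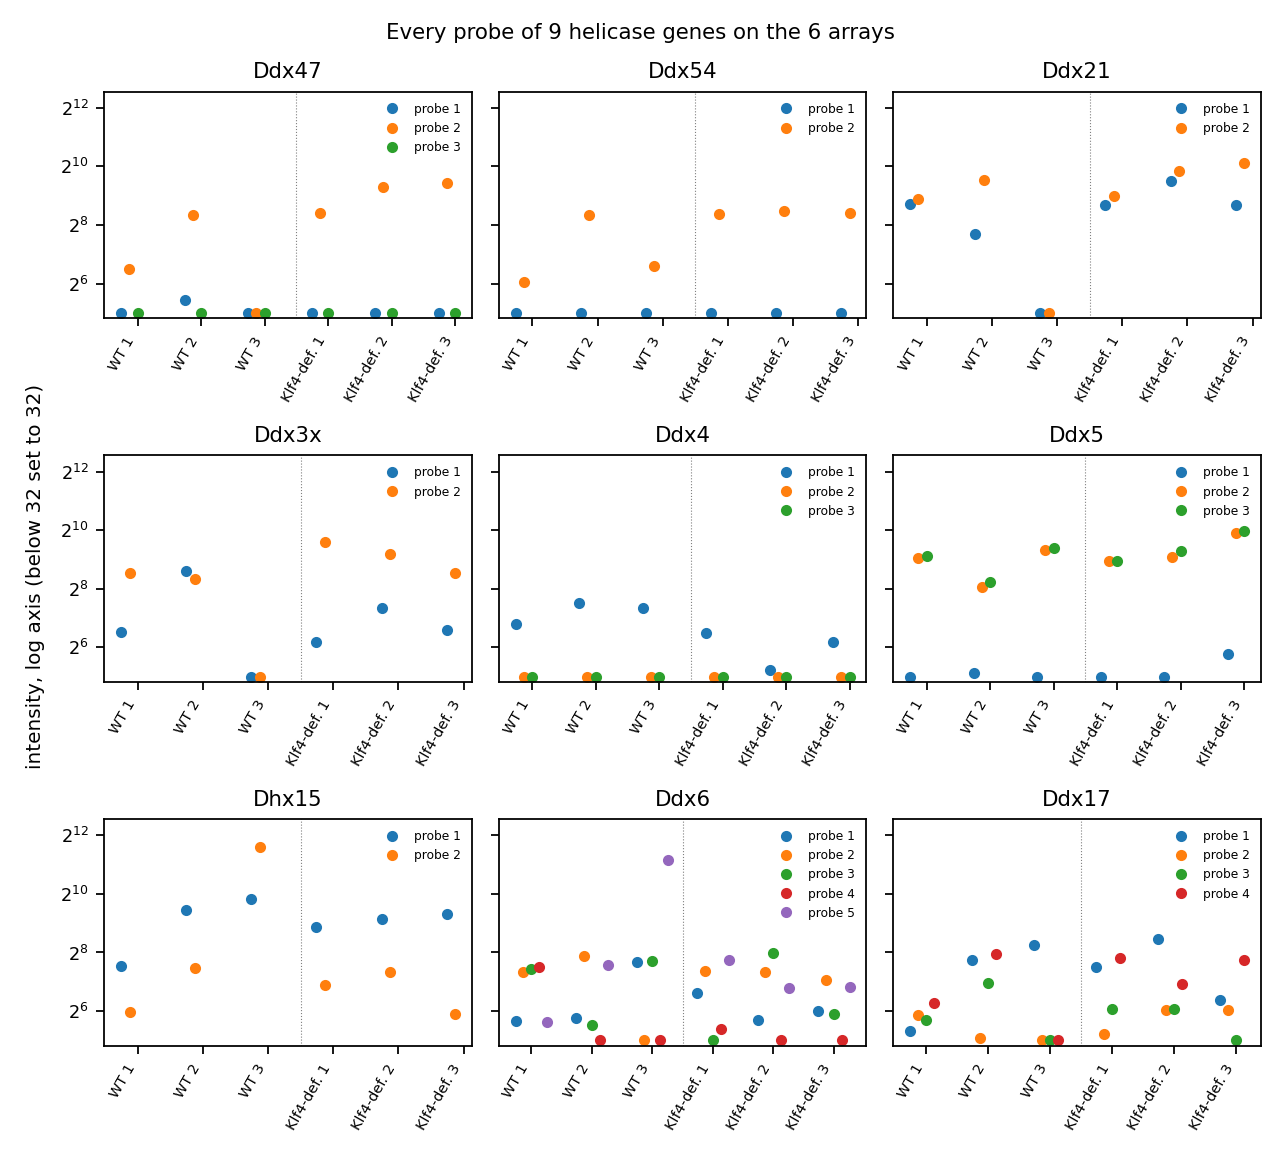
Points show the intensity of each probe of 9 helicase genes on each array, on a log axis with values below 32 drawn at 32 and probes numbered in the order of their identifiers. Both Ddx21 and both Ddx3x probes are at 32 in WT replicate 3 alone, whereas 1 Ddx47, 1 Ddx54 and 1 Ddx4 probe stand above companions that stay at or near 32, and Ddx6 probes scatter.

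The remaining helicases were mostly bright on 1 array. Dhx30, of the mitochondrial ribosome, was above 32 only in Klf4-deficient replicate 3, at 250.3, and Dhx57 in the same array, at 95.5. Dhx40 reached 47.0 in Klf4-deficient replicate 2 and Ddx59 38.6 in WT replicate 3, and neither was above 32 elsewhere. Dhx32 read 28.8, 31.9 and 454.3 in the WT arrays and 45.7, 26.5 and 43.7 in the Klf4-deficient arrays, a further probe that was brightest in WT replicate 3. Its difference was -0.955 ± 1.135, and 0.321 without that array. The mitochondrial Ddx28 and the cohesion helicase Ddx11 were not above 32.

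Most Dhx probes had positive differences, and Ddx probes were evenly divided. Of 15 tested Dhx probes, 13 were higher in Klf4-deficient cells, or 86.7%, with a median of 0.53, beside 45.8% and -0.05 over all tested probes. Without WT replicate 3 this was 93.3%, with a median of 0.43, beside 54.9% and 0.06. However, 6 of the 13 were above 32 on Klf4-deficient arrays alone and could only be higher, and 0 Dhx probes were above 32 on WT arrays alone. Of 44 tested Ddx probes, 22 were higher and 22 lower, with a median of -0.04, and 10 were above 32 on WT arrays alone and 1 on Klf4-deficient arrays alone. Of Ddx probes 45.2% were higher without WT replicate 3, with a median of -0.20. No test was made of the difference between Dhx and Ddx.

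Probes of the same gene often pointed in different directions. 17 genes had at least 2 tested probes, and for 9 these shared a sign and for 8 they did not. The widest gaps between differences of a gene's probes were 2.58 for Ddx47, 1.83 for Ddx3x, 1.79 for Dhx15, 1.53 for Ddx6, 1.31 for Ddx49 and 1.25 for Ddx17. The narrowest were 0.03 for Ddx21 and 0.09 for Dhx29. Both probes of Ddx21, Ddx3x, Ddx20 and Ddx39b were above 32 on the same 5 arrays and not in WT replicate 3. Both Dhx15 probes were above 32 on all 6 arrays and differed in sign.

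Other genes that act with these helicases showed 0 probes past the adjusted threshold as well (limma). Among other RNA helicases, 23 probes were tested, 14 higher and 9 lower, with a median of 0.40, and 0.17 without WT replicate 3. Eif4a3, the DEAD box core of the exon junction complex, read 24.9, 33.4 and -1.9 in the WT arrays and 131.9, 86.8 and 50.0 in the Klf4-deficient arrays. All Klf4-deficient values were the higher ones, by 1.36 ± 0.39 (SE), with an unadjusted p of 0.0157 and an adjusted p of 0.715 (limma). Supv3l1, a mitochondrial RNA helicase, read 129.7, 466.5 and 9.5 against 10, 48.3 and 4.1, with overlapping groups and a difference of -1.76 ± 1.00. It was -2.74 without WT replicate 3, with an unadjusted p of 0.0112 and an adjusted p of 0.836 (limma).

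Of G-patch cofactors, 38 probes were tested, 20 higher and 18 lower, with a median of 0.04, and -0.03 without WT replicate 3. Gpatch4, a nucleolar G-patch protein, read 491.8, 111.3 and 1117.3 in the WT arrays and 21.0, 13.9 and 9.9 in the Klf4-deficient arrays on 1 probe (ILMN_1255262). It was thus above 32 in every WT array and in no Klf4-deficient array, at least 12.3-fold lower, with an unadjusted p of 0.0078 and an adjusted p of 0.715 (limma). The other tested Gpatch4 probe read 57.0, 163.3 and 23.6 against 416.1, 108.2 and 698.1, a difference of 2.24 ± 0.94 in the opposite direction. The differences of these probes were -2.87 and 1.71 without WT replicate 3. One Gpatch2l probe read -7.2, 95.6 and -1.8 against 79, 298.9 and 545.9, with overlapping groups and a difference of 2.35 ± 0.87, or 2.08 without WT replicate 3. The other tested Gpatch2l probe read 10.9, 6.4 and 37.7 against 19.8, 4.3 and 40.4, a difference of 0.03 ± 0.19.

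Of MIF4G proteins and exon junction partners, 27 probes were tested, 12 higher and 15 lower, with a median of -0.06, and -0.14 without WT replicate 3. Cwc22, the splicing factor that escorts Eif4a3 to the exon junction, read 31.1, 2.2 and -16.4 in the WT arrays and 90.5, 162.8 and 90.8 in the Klf4-deficient arrays on 1 of its 5 probes (ILMN_2746328). This probe was above 32 in every Klf4-deficient array and in no WT array, at least 3.44-fold higher, with an unadjusted p of 0.00135 and an adjusted p of 0.715 (limma). The other 2 tested Cwc22 probes did not show this, with differences of -0.05 ± 0.25 and 0.24 ± 1.51, or -0.14 and -0.21 without WT replicate 3. Eif4g2, a translation initiation scaffold, read 2014.8, 1156.5 and 1739.3 against 1202.4, 777.4 and 515.7 on 1 probe, with overlapping groups and a difference of -1.02 ± 0.40. Another Eif4g2 probe (ILMN_2625167) pointed the other way, at 239.9, 333.1 and 10.9 against 400.7, 443.1 and 402.6, with groups that do not overlap. Its difference was 1.60 ± 0.94, and 0.55 without WT replicate 3. A further Eif4g2 probe was above 32 only in Klf4-deficient replicate 3, at 56.5.

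Of export and SMN complex partners, 26 probes were tested, 10 higher and 16 lower, with a median of -0.25, and -0.06 without WT replicate 3. Gemin2, a partner of Ddx20 in the SMN complex, had 1 probe (ILMN_1255390) above 32 only in Klf4-deficient replicates 1 and 2, at 74.5 and 49.6. Its other probe was above 32 on all arrays, at 343.6, 3695.5 and 2071.0 against 2084.3, 2034.8 and 663.2, with overlapping groups and a difference of 0.03 ± 1.03, or 0.33 without WT replicate 3. Nxf1, the mRNA exporter to which Ddx39b hands its cargo, had 1 tested probe, which read 29.6, 84.7 and 340.4 in the WT arrays and 35.6, 31.6 and 51.0 in the Klf4-deficient arrays, highest in WT replicate 3. Its difference was -1.33 ± 0.90, and -0.43 without that array.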

How the data were processed

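RNA was hybridised to 6 one-colour Illumina bead arrays, 3 WT and 3 Klf4-deficient. The deposited intensities are linear and background-subtracted, with 1 value for each probe on each array, and the 6 columns share one scale. The submitters' processing notes name BeadStudio, and give neither a version nor a normalization. A service laboratory prepared and scanned the arrays, per the labels. Any scaling of the arrays to a common level, which the notes do not state, would hide differences in RNA amount. Whether such scaling set the near-constant share of all probes above 32 was not tested.

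Values below 32 were set to 32 and log2 was taken, so folds of dim probes can be understated. Gene symbols came from the platform annotation and were brought up to date with a RefSeq gene list: 34885 had 1 symbol, 18 several and 10378 none listed there. The 18270 probes above 32 on at least 1 array were fitted in R 4.3.3 (package data.table, version 1.17.8) by lmFit and eBayes of limma 3.58.1, and p-values adjusted by Benjamini-Hochberg over all of them at 0.05. The script was tested on simulated data with means raised above the floor and no floor applied, so that test does not cover probes near the floor. Before a fold, "at least" marks a group wholly at the floor beside a group wholly above it. The number of arrays limits the precision. No probe sequence or genome position was used.

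The helicases, role lists and partner lists were chosen with earlier results of these data known. Named in full were, in each direction, up to 8 helicase probes with the smallest p whose groups do not overlap; the 8 helicase probes with the highest mean; all probes of Ddx3x, Ddx4, Ddx5, Ddx6, Ddx17, Ddx21, Ddx41, Dhx9, Dhx15 and Dhx36; up to 6 genes whose probes disagree most; and the gene with the smallest p in each direction of each partner list. Other helicases were added to account for every gene, and further probes of partner genes after their values were seen. Alternatives varied the floor, filter, scaling, probe summary, variance model, array weights and replicate block, and left out each array in turn. Replicate numbers 1, 2 and 3 are shared between groups.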

Additional observations from a re-analysis of the deposited data

How the results depend on the processing

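No helicase probe passed the adjusted threshold in any of 18 alternative settings. Over all probes, the count past it was 2 with a floor of 64, 1 with no filter on low values, 1 with the mean of probes per gene, 1 with an ordinary t statistic, and 0 otherwise, leave-one-out included. The helicase median ran from 0 (floor of 64, no filter) to 0.36 (probes above 32 on at least 3 arrays). The median over all probes was 0 in the former settings and 0.22 in the latter, against -0.05 in the main fit. When 1 array was left out the helicase median was 0.05 to 0.31, beside -0.11 to 0.06 over all probes. Without WT replicate 3, the unadjusted p values under 0.05 over the table split into 180 higher and 352 lower, against 266 and 105 with all arrays. With array weights they split into 181 and 422. WT replicate 3 had a weight of 0.065 there, against 0.94 to 2.7 for the others, so this setting nearly leaves that array out.

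Of 31 helicase probes recomputed, 11 changed sign in at least 1 setting, and the cause was not tested. With a floor of 64 the tested Ddx19b and Ddx5 probes that lie below it were at 0, with no sign. Array weights gave 0.31 (Ddx6 ILMN_1248658), -0.23 (Ddx6 ILMN_2606667), 0.47 (Ddx6 ILMN_3114632), -0.61 (Ddx3x ILMN_2519780) and -0.10 (Dhx9 ILMN_2697594). A floor of 64 gave -0.33 for that Ddx3x probe. Among probes that kept their sign, leaving out 1 array gave 1.64 to 3.31 for Ddx47, 0.94 to 2.09 for Ddx54, 0.75 to 2.61 and 0.44 to 2.71 for Ddx21, 0.69 to 2.45 for the second Ddx3x probe, -1.52 to -0.89 for Ddx4 and -2.33 to -0.54 for Ddx49. For the others it gave -0.63 to 0.39, -0.35 to 1.09, -1.43 to 0.052, -1.12 to 0.13 and -2.26 to 0.51 for Ddx6 probes 1 to 5, -0.54 to 0.92 and -0.60 to 0.37 for Ddx17 probes 1 and 3, -0.044 to 0.34 for the first Ddx5 probe, -0.54 to 0.61 for the first Dhx15 probe, -0.85 to 0.96 for the first Ddx3x probe and -0.31 to 1.04 for the second Dhx9 probe.

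With the replicate number as a block, 0 probes passed, 362 had an unadjusted p under 0.05 and the helicase median was 0.18, unchanged by construction. Ddx47 and Ddx4 no longer had an unadjusted p under 0.05 there or with trend and robust eBayes, where no helicase probe did. Deviations of same-numbered arrays from their group mean correlated at 0.03, 0.04 and 0.04. With 3 arrays per group and WT replicate 3 apart from the rest, these values cannot show whether same-numbered arrays belong together. Signal over background limits the rest: 29 of 88 helicase probes were never above 32.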
